A study of Rattus norvegicus with 6 samples.

Results

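Transcripts of 6 genes that are typical of heart muscle cells were followed in macrophages sorted from infarcted rat hearts. The genes were chosen by their Ensembl identifiers and are *Nppa* (ENSRNOG00000008176), *Nppb* (ENSRNOG00000008141), *Myh7* (ENSRNOG00000016983), *Tnnt2* (ENSRNOG00000033734), *Actc1* (ENSRNOG00000008536) and *Des* (ENSRNOG00000019810). All 6 were found among the 33884 genes of the count table, and 5 of them had enough reads for a test. RNA was sequenced from CD45+HIS36+ macrophages, gated by a leukocyte surface protein and by an antibody against rat macrophages, from the digested infarcted tissue of Sprague Dawley rats at 72 h after myocardial infarction (MI). The groups were WT (3 libraries) and Dusp6-/- (3 libraries), and both underwent the same coronary artery ligation without reperfusion. The resulting damage was not the same. The study reported a smaller infarcted area and fewer dying heart muscle cells in Dusp6-/- hearts at the sampled time. Whether this difference affected the transcript levels was not tested. The Dusp6-/- rats carry a CRISPR-made single-base insertion in exon 1 of *Dusp6* in every cell of the body, which introduces a premature stop codon. Effects of the loss in macrophages and in the heart around them cannot be told apart. The study's infarctions were made in male rats of matched age. Neither the labels nor the methods say whether a library is 1 rat or a pool, so p-values measure only the spread between these libraries.

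Cardiomyocytes are the contractile cells of the heart and are packed with sarcomeres, in which myosin pulls on actin filaments under the control of the troponin complex. Desmin filaments tie these sarcomeres to each other and to the cell membrane, and natriuretic peptides are secreted hormones whose genes are switched on in stretched or injured ventricles. After MI, macrophages in the infarct take up dying cardiomyocytes and their debris, and digestion of the tissue also frees muscle RNA into the cell suspension. The study used desmin protein inside macrophages as a measure of such uptake, and reported that its level was comparable between the genotypes. The transcripts are RNA of bulk samples, to which free muscle RNA can add, so they do not measure uptake alone.

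The 6 libraries held between 12089585 and 17274938 counted reads. Levels are given as CPM, counts per 1000000 reads, after scaling of each library by the TMM method. A count of 3, the floor used here, equals 0.172 to 0.242 CPM depending on the library, and covers counting error only. Replicate 1 of the Dusp6-/- macrophages stood apart from its group in a principal component analysis, with a score of 4.48 on the first component against 53.5 and 65.0 for replicates 3 and 2 and between -49.7 and -35.9 for the WT libraries. Without it, the log2 fold changes reported below were 1.16 for *Nppa*, -1.32 for *Myh7*, -0.07 for *Tnnt2*, 0.17 for *Actc1* and 0.54 for *Des*, and the log2 ratio of the summed level was 0.34. Because the identifiers of the other genes could not be paired with symbols in the reference used here, the macrophage label, the level of *Dusp6*, other cardiomyocyte genes, markers of other cell types and genes for the uptake of dying cells were not analysed here.

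The 6 transcripts were a small part of every library, and the share of all heart muscle RNA was not measured. The 6 genes together took 549, 637 and 435 reads in WT replicates 1, 2 and 3 and 591, 418 and 643 reads in the Dusp6-/- replicates. Without TMM scaling, these sums came to 34.7, 38.7 and 36.0 CPM in WT. They were lowest in Dusp6-/- replicate 2, at 29.5 CPM (Wilson 95% interval 26.8 to 32.4), and highest in Dusp6-/- replicate 3, at 45.5 CPM (42.1 to 49.2), so both extremes lay in the same genotype. These intervals cover counting error only.

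After TMM scaling the summed level was 32.6, 36.8 and 31.7 CPM in WT and 33.9, 33.7 and 51.5 CPM in Dusp6-/- macrophages. Dusp6-/- replicate 3 was the highest library, and the other two Dusp6-/- libraries lay within the range of the WT libraries. WT libraries averaged 33.7 ± 2.72 CPM and Dusp6-/- libraries 39.7 ± 10.2 CPM (mean ± SD, n = 3 each). The log2 ratio of these means, Dusp6-/- over WT, was 0.24, and without Dusp6-/- replicate 3 it was 0.0041. The same log2 ratio was 0.21 with RLE scaling, 0.17 with upper-quartile scaling and -0.0025 with unscaled library totals. The size of the difference in the summed level thus depends on the scaling, and it was close to none without scaling. *Des* was the largest part of the sum in every library, from 41.1% of the counts (WT replicate 3) to 62.6% (Dusp6-/- replicate 1). The other 5 genes together gave 16.7 ± 2.30 CPM in WT and 15.7 ± 4.32 CPM in Dusp6-/- macrophages (SD, n = 3 each). In sorted bulk samples, the number of cells that carry muscle RNA and the amount of it per cell cannot be told apart. The part of engulfed muscle, free muscle RNA and sorted muscle cells in these values was not tested.

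**Figure D1:**
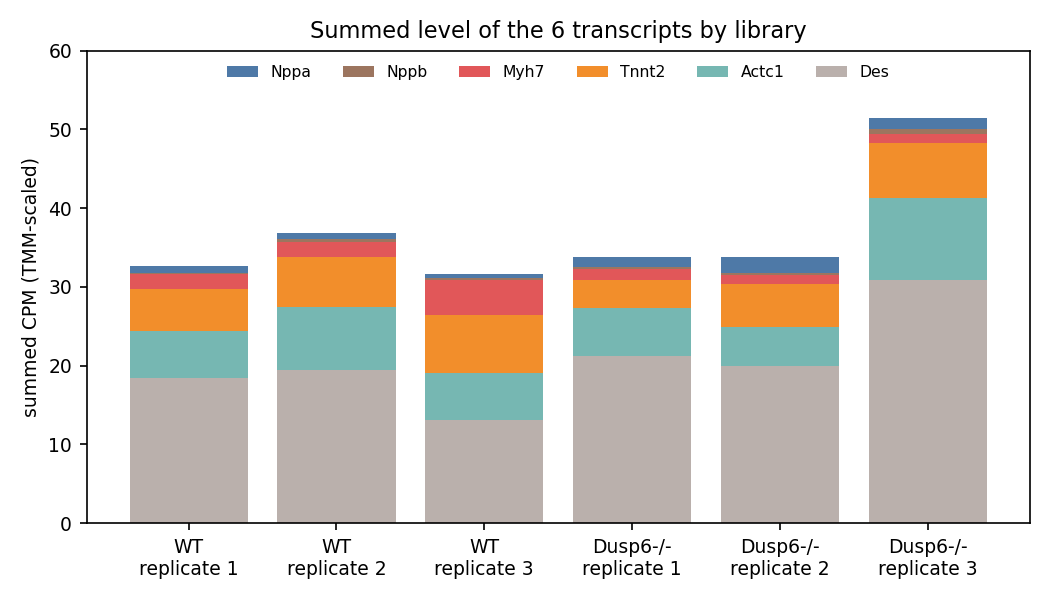
Stacked bars give the summed CPM (vertical axis, TMM-scaled) of the 6 transcripts in each of the 3 WT and 3 Dusp6-/- libraries, with 1 colour for each gene. Dusp6-/- replicate 3 stands at 51.5 CPM, while the 5 other libraries lie between 31.7 and 36.8 CPM, and *Des* is the tallest part of every bar.

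None of the tested genes passed the thresholds of the genotype contrast. By edgeR's quasi-likelihood test, with thresholds of 0.05 on the adjusted p and 1 on the size of the log2 fold change, 0 of the 5 genes were called higher and 0 were called lower in Dusp6-/- macrophages. Over all 12756 genes tested, 3.47% were called higher and 2.16% were called lower. At an unadjusted p under 0.05 there were 2 of the 5 genes, *Nppa* and *Myh7*, against 30.6% of all genes tested. DESeq2's Wald test called 0 of the 6 genes (it gave *Nppb* no adjusted p), and 1 of them, *Myh7*, passed unadjusted, against 22.3% of the 18721 genes it gave a p-value. Without Dusp6-/- replicate 1, where 8.27% of 13103 genes were called higher and 7.39% lower, edgeR again called 0 of the 5. The median log2 fold change was 0.11 over the 5 genes and 0.02 over all genes tested, and the 5 genes did not share a direction.

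**Figure D2:**
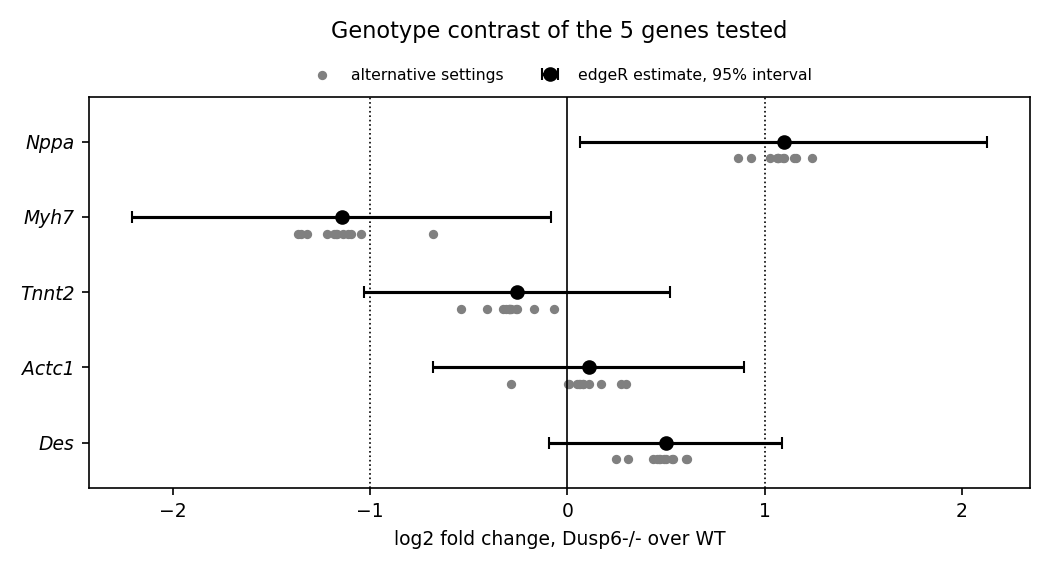
Black points and bars give the log2 fold change, Dusp6-/- over WT (horizontal axis), of the 5 tested genes with its 95% interval from edgeR, and grey points give the estimates under the alternative settings. *Nppa* and *Myh7* lie past the dotted lines at 1 and -1 on opposite sides, and the intervals of *Tnnt2*, *Actc1* and *Des* include 0.

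Among the natriuretic peptides, *Nppa* encodes the precursor of atrial natriuretic peptide, a hormone that lowers blood volume and is re-expressed in the stressed ventricle. WT libraries had 15, 12 and 8 counts, or 0.891, 0.693 and 0.583 CPM. Dusp6-/- libraries had 23, 25 and 17 counts, or 1.32, 2.02 and 1.36 CPM. Every Dusp6-/- library was above every WT library, and the order also held with RLE, upper-quartile and unscaled library sizes. Means were 0.722 ± 0.156 and 1.57 ± 0.393 CPM (SD, n = 3 each). The log2 fold change was 1.10 (standard error 0.45, 95% interval 0.07 to 2.13), and the adjusted p of 0.144 from edgeR's quasi-likelihood test did not pass the threshold (unadjusted p = 0.0394). DESeq2 gave 1.07 (standard error 0.64) with an adjusted p of 0.251. An exact two-sided permutation test of the single gene gave p = 0.1, the smallest that 3 against 3 libraries allow. Set against counting error alone, the spread of its counts within a genotype gave a chi-square of 0.926 per degree of freedom. The other 5 genes gave 2.74 (*Nppb*), 5.73 (*Myh7*), 5.82 (*Tnnt2*), 9.27 (*Actc1*) and 14.7 (*Des*). At a given relative spread this value grows with the counts. These totalled 35 (WT) and 65 (Dusp6-/-) for *Nppa* against 825 and 1002 for *Des*. The values therefore do not rank the genes by how steady they were between replicates.

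*Nppb* encodes the precursor of brain natriuretic peptide, the ventricular hormone measured in patients with heart failure. Its counts were 1, 7 and 4 in WT and 4, 2 and 9 in Dusp6-/- macrophages, which is between 0.0594 and 0.720 CPM. In 2 of the 6 libraries, WT replicate 1 and Dusp6-/- replicate 2, it was at or under the floor of 3 counts, and the genotypes overlapped. The gene did not pass edgeR's filter on low counts and was not tested there. Without that filter, edgeR gave a log2 fold change of 0.53 (standard error 1.08) with an adjusted p of 0.787. DESeq2 gave 0.52 (standard error 1.26). No difference between the genotypes was detected at these counts, and the standard errors were wide.

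The natriuretic peptide genes are neighbours on chromosome 5. Stretches of 150 bases that end just before the first base of each gene are shown because *Nppa* gave the largest estimated difference upward and because these promoters are known targets of cardiac transcription factors. *Tnnt2*, which is described below with the sarcomere genes, is added for comparison. They were taken from RefSeq (build GRCr8, while the counts were made on rn6) and lie on the plus strand at chr5:163712034-163712183, chr5:163699805-163699954 and chr13:49818973-49819122. Capitals mark the TATA motif TATAAA, the GATA factor motifs AGATAA and TGATAA, and the muscle CAT motif CATTCC, on either strand.
Nppa: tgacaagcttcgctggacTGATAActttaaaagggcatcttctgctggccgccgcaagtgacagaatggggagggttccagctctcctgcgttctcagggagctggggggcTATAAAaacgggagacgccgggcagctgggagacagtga
Nppb: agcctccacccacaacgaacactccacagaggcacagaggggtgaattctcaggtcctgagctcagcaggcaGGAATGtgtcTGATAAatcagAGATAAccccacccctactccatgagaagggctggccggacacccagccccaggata
Tnnt2: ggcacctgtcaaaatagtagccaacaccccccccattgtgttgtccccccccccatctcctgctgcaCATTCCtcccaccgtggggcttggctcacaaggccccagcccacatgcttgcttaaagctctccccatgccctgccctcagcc

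The motifs were counted on both strands in RefSeq's promoter windows, which run from 250 bases before to 50 bases after a start. TGATAA was found in the windows of *Nppa* and *Nppb* and in 9.03% of all 33469 windows. AGATAA was found in those of *Nppb* and *Tnnt2*, in *Tnnt2* before the stretch shown, and in 11.6% of all windows. The windows of *Nppa* and *Nppb* held TATAAA, which in *Nppb* starts just before the stretch shown, like 14.2% of all windows. CATTCC was in those of *Nppb* and *Tnnt2* and in 14.2% of all windows. The CArG box, bound by serum response factor, was in the window of *Actc1* and in 1.64% of all windows, and the site for MEF2 factors was in none of the 7 windows of the 6 genes and in 0.565% of all. The E-box CANNTG was in at least 1 window of each gene except *Actc1*, and in 72.1% of all windows. Starts in the window of *Myh7*, that of *Nppb* and 1 of the 2 windows of *Tnnt2* lie inside the gene. These matches describe the letters only.

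**Figure D3:**
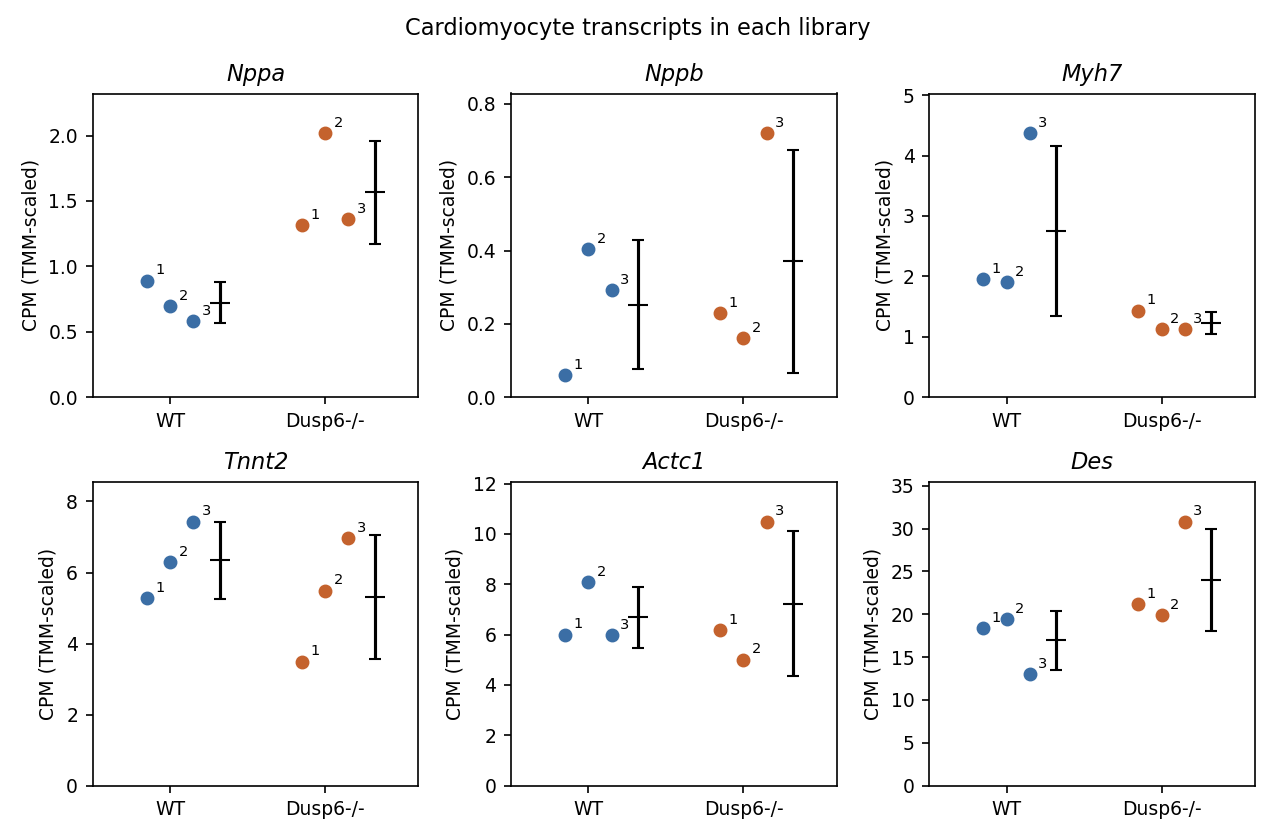
Each panel gives the CPM (vertical axis, TMM-scaled, from 0) of 1 gene, with 1 numbered point for each replicate of the 3 WT and 3 Dusp6-/- libraries and the mean ± SD beside them. The genotypes do not overlap for *Nppa* and *Myh7* nor, with TMM scaling but not with the 3 others, for *Des*, and they overlap for *Nppb*, *Tnnt2* and *Actc1*.

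Within the sarcomere, *Myh7* encodes the slow beta myosin heavy chain, which adult rodent ventricles express little of and raise under stress. Counts were 33, 33 and 60 in WT and 25, 14 and 14 in Dusp6-/- macrophages, which corresponds to 1.96, 1.91 and 4.37 CPM and to 1.43, 1.13 and 1.12 CPM. WT replicate 3 was far above the other libraries, and every Dusp6-/- library was below every WT library under all 4 library scalings. The mean was 2.75 ± 1.41 CPM in WT against 1.23 ± 0.177 CPM in Dusp6-/- macrophages (SD, n = 3 each). On the log2 scale the fold change was -1.14 (standard error 0.47, 95% interval -2.21 to -0.08), and the adjusted p of 0.141 from edgeR did not pass the threshold (unadjusted p = 0.0379). DESeq2 gave -1.17 (standard error 0.57) with an adjusted p of 0.137, and the exact permutation test gave p = 0.1. Leaving out WT replicate 3 brought the log2 fold change to -0.68 with an adjusted p of 0.407 from edgeR.

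*Nppa* and *Myh7* are both genes of the fetal programme that ventricular muscle re-expresses under load, and their differences pointed in opposite directions. Both sizes exceeded the fold change threshold, while neither adjusted p passed its own.

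*Tnnt2* encodes cardiac troponin T, the tropomyosin-binding subunit of troponin. It had 89, 109 and 102 counts in WT and 61, 68 and 87 counts in Dusp6-/- macrophages. In CPM these were 5.29, 6.30 and 7.43 against 3.49, 5.49 and 6.96, with Dusp6-/- replicate 1 the lowest library, and the genotypes overlapped. The log2 fold change was -0.26 (95% interval -1.03 to 0.52, standard error 0.34), and edgeR gave an adjusted p of 0.636.

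*Actc1* encodes cardiac alpha actin, the thin filament actin of heart muscle. Its levels were 5.999, 8.09 and 5.98 CPM in WT (101, 140 and 82 counts) and 6.19, 5.01 and 10.5 CPM in Dusp6-/- macrophages (108, 62 and 131 counts). Both the lowest and the highest library were Dusp6-/-. The log2 fold change was 0.11 (95% interval -0.68 to 0.90, standard error 0.35), and edgeR gave an adjusted p of 0.856. It turned to -0.28 without Dusp6-/- replicate 3.

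*Des* encodes desmin, an intermediate filament protein of cardiac, skeletal and smooth muscle, and is therefore less specific to cardiomyocytes than the sarcomere genes above. It had 310, 336 and 179 counts in WT and 370, 247 and 385 counts in Dusp6-/- macrophages. These were 18.4, 19.4 and 13.0 CPM against 21.2, 19.9 and 30.8 CPM. WT replicate 3 was the lowest library and Dusp6-/- replicate 3 the highest. The genotypes parted by a narrow margin with TMM scaling, between 19.4 and 19.9 CPM, and overlapped with RLE, upper-quartile and unscaled library sizes. Mean levels were 17.0 ± 3.42 and 24.0 ± 5.95 CPM (SD, n = 3 each). The log2 fold change was 0.50 (standard error 0.26, 95% interval -0.09 to 1.09), with an adjusted p of 0.225 from edgeR and 0.301 from DESeq2. On the linear scale, that interval runs from 0.939-fold to 2.12-fold. Without Dusp6-/- replicate 3 the log2 fold change was 0.25.

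With TMM scaling, then, 2 of the 6 genes had higher and 1 had lower CPM in every Dusp6-/- library than in any WT library. The same was true of 17.8% and 16.3% of all genes tested.

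The proportions of the 6 transcripts varied between libraries by more than counting error. If the proportions were the same in every library and only counting error acted, a chi-square test of the 6 counts in 6 libraries would give about 1 per degree of freedom. The value was 6.48 over all libraries, 5.50 within the WT libraries and 2.58 within the Dusp6-/- libraries. *Tnnt2*, *Actc1* and *Des* alone gave 6.25. These values compare libraries and not genotypes, and the same measure was not computed for other genes.

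WT replicate 3 was the library with the most unusual proportions. *Myh7* made up 13.8% of its counts for the 6 genes (Wilson 95% interval 10.9 to 17.4). The share was 6.01% (4.31 to 8.32) in WT replicate 1 and 5.18% (3.71 to 7.19) in WT replicate 2. *Des* made up 41.1% (36.6 to 45.8) of these counts in WT replicate 3, against 56.5% (52.3 to 60.6) and 52.7% (48.9 to 56.6) in WT replicates 1 and 2. In the Dusp6-/- libraries, *Des* held 62.6%, 59.1% and 59.9% and *Myh7* held 4.23%, 3.35% and 2.18%.

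Ratios of counts within a library are free of library scaling. The ratio of *Nppa* to *Myh7* was 0.455, 0.364 and 0.133 in WT and 0.920, 1.79 and 1.21 in Dusp6-/- macrophages. *Myh7* to *Des* gave 0.106, 0.0982 and 0.335 in WT and 0.0676, 0.0567 and 0.0364 in Dusp6-/- macrophages. The genotypes did not overlap for either ratio. These ratios use the same counts as the single genes above and are no separate result. Of the 10 ratios between the genes other than *Nppb*, 5 did not overlap, and the rest did. *Nppa* to *Tnnt2*, *Myh7* to *Actc1* and *Tnnt2* to *Des* were also among those that did not overlap. The share of such ratios among other genes was not computed. The genotypes overlapped for *Actc1* to *Des*, which was 0.326, 0.417 and 0.458 in WT and 0.292, 0.251 and 0.340 in Dusp6-/- macrophages.

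**Figure D4:**
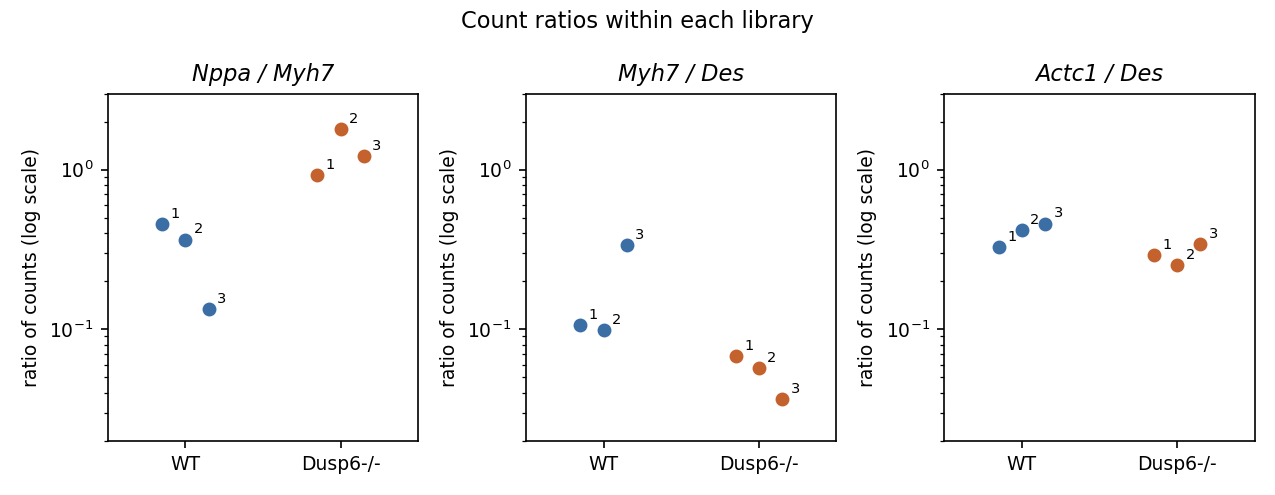
Points give the ratio of counts of 2 genes within each library (vertical axis, log scale), with the replicate number beside each of the 3 WT and 3 Dusp6-/- libraries. *Nppa* to *Myh7* lies between 0.133 and 0.455 in WT and between 0.920 and 1.79 in Dusp6-/- macrophages, *Myh7* to *Des* is lower in each Dusp6-/- library than in any WT library, and *Actc1* to *Des* overlaps.

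No single library was the highest for all 6 genes. Dusp6-/- replicate 3 had the highest CPM for 3 of them (*Nppb*, *Actc1* and *Des*), WT replicate 3 for 2 (*Myh7* and *Tnnt2*) and Dusp6-/- replicate 2 for 1 (*Nppa*). WT replicate 3 was also the lowest library for 2 genes, *Nppa* and *Des*.

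The genes whose log2 CPM followed the mean of the 5 tested genes most closely over the 6 libraries were ENSRNOG00000023946 and ENSRNOG00000021324, both with a Pearson r of 0.973. The first 10 genes of that ranking had r between 0.940 and 0.973. With 6 libraries and 12756 genes such values describe the ranking only, and the identifiers could not be paired with symbols here.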

How the data were processed

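Trim Galore was used by the authors for trimming, HISAT2 for alignment to rnor6 (rn6) and featureCounts 1.5.0-p3 for counting, per the submitters' processing notes. The deposited values are raw counts. The annotation release, strand setting and rule for multi-mapping reads are not given in the sources used here, so reads shared between *Myh7* or *Actc1* and their close paralogues are uncertain. All 6 columns were matched to samples by name.

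The main test was edgeR 4.0.16 under R 4.3.3 (filterByExpr, TMM, quasi-likelihood test, Benjamini-Hochberg adjustment over all 12756 genes tested), with DESeq2 1.42.0 as an alternative. Calls needed a log2 fold change beyond 1 in size at an adjusted p below 0.05, as in the study's methods. Standard errors and 95% intervals were derived from the F statistic. The test was tried on simulated data. Pairs of libraries gave a chi-square of at least 27.6 per gene, so none repeats another.

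The 6 genes and all gene lists were chosen with earlier results of these data known. The 6 symbols come with the identifiers. For all others, 0 identifiers carried a symbol in the RefSeq table. The rule for named genes was all 6 members, called or most abundant listed genes (not analysed here) and the 10 genes closest in pattern, of which 2 are given. Promoter windows were matched by symbol for all 6.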

Additional observations from a re-analysis of the deposited data

How the results depend on the processing

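Of the cardiomyocyte genes tested (5 in most settings, 4 with a minimum of 10 counts, 6 with DESeq2 or no filter), 0 were called in each direction under each of these settings: DESeq2, upper-quartile or RLE scaling, every gene with a count kept, a minimum of 10 counts per library, no fold change threshold, and each library left out. The count was also 0 with the replicate block, which gave log2 fold changes of 1.09 for *Nppa* and -1.05 for *Myh7*. Same-numbered libraries had correlated deviations of 0.106, -0.118 and -0.139, so the numbers were not taken as pairs. Of 59 comparisons of a log2 fold change with an alternative, 58 kept their direction, and none passed the adjusted p threshold. The direction turned for *Actc1*, whose log2 fold change ran from -0.28 without Dusp6-/- replicate 3 to 0.30 without Dusp6-/- replicate 2. The size fell below the fold change threshold of 1 for *Nppa* (0.93 without WT replicate 3, 0.87 without Dusp6-/- replicate 2) and *Myh7* (-0.68 without WT replicate 3). Adjusted p ran from 0.0979 (*Myh7*, with that minimum) to 0.997. The log2 ratio of the summed level ran from -0.09 (without *Des*) to 0.34 (without Dusp6-/- replicate 2). Each value lay within 0.35 of the reported 0.24. That margin is the SD of the log2 summed level in Dusp6-/-, the genotype with the larger SD. It exceeds the reported value, so it cannot separate that value from no difference. Over all genes, DESeq2 called 645 higher and 661 lower, and leaving out 1 library gave 1 to 1083 higher and 5 to 968 lower. Without WT replicate 1 or 2, or Dusp6-/- replicate 2 or 3, at most 5 genes were called higher and at most 13 lower. In those settings 0 calls among the cardiomyocyte genes say little, because almost no gene was called. Overlap under other scalings was examined after seeing the data. Alternatives for other cardiomyocyte genes were not run. *Nppb*, with 1 to 9 counts a library, was near the floor.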
